A study of Homo sapiens with 12 samples.

Results

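MHC class I antigen presentation was followed here through 9 genes: the heavy chains HLA-B, HLA-C, HLA-E and HLA-F, the light chain B2M, the peptide transporter subunits TAP1 and TAP2, the loading factor TAPBP and the transactivator NLRC5. They were taken by symbol from the 59653 rows of the count table. All 9 were present and all 9 passed the filter on low counts, which kept 24671 genes. The cells were human neurons made from induced pluripotent stem cells of IMR-90, a line that began as lung fibroblasts, and so they represent 1 genetic background. A control siRNA with no intended target (siNC) was used for 6 libraries, and an siRNA against ZCCHC17 (siZCC), a zinc knuckle protein that binds RNA, for the other 6. Total RNA was sequenced. No other genotype, dose or time is given in the labels, and the sample titles carry the letters NPC without saying what they mean. Nothing says that the libraries came from separate cultures, so p-values measure the spread between these libraries, which may be technical.

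A class I molecule is a heavy chain bound to beta-2-microglobulin and to a short peptide that it shows at the cell surface to CD8 T cells and natural killer cells. Peptides are cut by proteasomes, pumped into the endoplasmic reticulum by the TAP1 and TAP2 transporter, trimmed by ERAP enzymes and loaded with the help of tapasin, the product of TAPBP. Transcription of most of these genes is driven by interferon-responsive elements and by an enhanceosome on an SXY promoter module, to which NLRC5 is recruited. Resting neurons are known for low class I levels, which interferon raises, and class I molecules also take part in synapse remodelling.

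The promoters of the members are shown because these elements lie close to the start of transcription. RefSeq windows (GRCh38.p14, 250 bases before to 50 after the start) were found for 7 members and the 190 bases before the start are printed for 6 of them, read 5′ to 3′ on the gene's strand. For TAP1, which had several windows, the one with the most upstream start was taken. The first 4 belong to genes that passed the test below and the last pair to genes that did not. Capitals mark letters that match, on either strand, the core of an interferon-stimulated element (TTTCNNTT), an NF-kB site (GGGNNTCCC or GGGNNTTCC), the core of an X2 box (TGACG) or a Y box (CCAAT).
HLA-B, chr6:31357180-31357369, minus strand: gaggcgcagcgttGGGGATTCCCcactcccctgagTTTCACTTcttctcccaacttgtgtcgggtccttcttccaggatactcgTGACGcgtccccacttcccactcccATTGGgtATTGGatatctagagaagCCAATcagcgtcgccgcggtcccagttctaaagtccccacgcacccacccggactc
HLA-C, chr6:31272093-31272282, minus strand: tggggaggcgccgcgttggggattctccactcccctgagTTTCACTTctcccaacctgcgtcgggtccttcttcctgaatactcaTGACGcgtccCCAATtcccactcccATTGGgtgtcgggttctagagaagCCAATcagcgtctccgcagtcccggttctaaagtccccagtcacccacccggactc
B2M, chr15:44711327-44711516, plus strand: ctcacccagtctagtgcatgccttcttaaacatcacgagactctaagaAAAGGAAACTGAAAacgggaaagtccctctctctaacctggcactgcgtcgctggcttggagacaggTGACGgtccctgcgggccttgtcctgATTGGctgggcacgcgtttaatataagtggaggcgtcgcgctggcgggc
TAP2, chr6:32838740-32838929, minus strand: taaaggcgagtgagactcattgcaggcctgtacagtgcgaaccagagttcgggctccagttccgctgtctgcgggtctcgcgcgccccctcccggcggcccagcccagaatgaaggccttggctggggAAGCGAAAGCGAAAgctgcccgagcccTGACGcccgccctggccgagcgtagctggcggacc
TAP1, chr6:32853705-32853894, minus strand: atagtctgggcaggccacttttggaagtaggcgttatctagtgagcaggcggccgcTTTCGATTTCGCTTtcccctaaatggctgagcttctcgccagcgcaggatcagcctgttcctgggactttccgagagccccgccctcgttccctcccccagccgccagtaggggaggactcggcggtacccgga
TAPBP, chr6:33314079-33314268, minus strand: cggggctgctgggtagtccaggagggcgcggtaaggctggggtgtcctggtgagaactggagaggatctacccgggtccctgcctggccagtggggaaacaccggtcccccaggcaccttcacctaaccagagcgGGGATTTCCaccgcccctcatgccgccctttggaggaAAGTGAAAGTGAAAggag

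The 7 windows of HLA-B, HLA-C, HLA-F, B2M, TAP1, TAP2 and TAPBP were searched on both strands. In all 7, the sequence TTTCNNTT was present, and 22.8% of the 35116 RefSeq windows of this length hold it. In HLA-B it began 155 bases before the start and in HLA-C 151 bases before, and TAP1, TAP2, TAPBP and B2M each carried an overlapping pair. The letters TGACG, which are also part of the longer cyclic AMP element TGACGTCA, were found in HLA-B, HLA-C, B2M and TAP2 and in 24.6% of all windows. TAP1, TAPBP and HLA-F did not have these letters in this window. This split was noticed after the values were seen, and no link to the changes was tested. In TAP2 the letters began 35 bases before the start, and its window held no CCAAT. HLA-F had a negative log2 fold change on few counts, and HLA-E and NLRC5 had no window to search. CCAAT was found in 5 of the 7 (34.6% of all windows) and the NF-kB letters in 3 (13.5%), where the pair of patterns overlap in HLA-B. The counted NF-kB match of B2M began 4 bases before the start and ran past it, so it is not marked above. The longer GGGACTTTCC, present in TAP1 and on the other strand in B2M, does not match these patterns and was not counted. TTCNNNGAA, a gamma-activated element found in 7.66% of all windows, and TGACGTCA, found in 1.85%, were in none of the 7; TATAAA was in 1 (11.5% of all windows) and GGGCGG in 4 (15786 of all windows). Over the 250 bases before the start, HLA-B and HLA-C were 89.0% identical, and HLA-F was 80.4% identical to HLA-B. These are matches of letters and not measured binding.

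Before the members were compared, the libraries were checked. ZCCHC17 stood at 53.99 to 61.0 counts-per-million (CPM, scaled by TMM factors) in siNC and at 9.37 to 10.6 CPM in siZCC, so the labels and the target gene matched in every library. Totals were 90755953 to 120023356 counts in siNC and 76115083 to 105389055 counts in siZCC, so depth was lower in most siZCC libraries. Of the neuron markers, MAP2 (1027 ± 103.6 CPM in siNC; mean ± SD, n = 6) and DCX (648.8 ± 41.9 CPM) were abundant while RBFOX3 was at 1.27 ± 0.149 CPM. The progenitor and glial genes VIM (3550 ± 109 CPM), SOX2 (621.2 ± 20.6 CPM) and GFAP (615.5 ± 81.98 CPM) were abundant too. The libraries also fell apart in IL1B, a cytokine gene: siNC replicates 2, 3 and 6 and siZCC replicates 1, 4 and 5 held 5.23 to 15.97 CPM and the other 6 held 0.0223 to 0.09999 CPM. The members that passed the test are given within each of these sets below.

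The question asked of the members was whether knockdown of ZCCHC17 was accompanied by other levels of the class I machinery. HLA-B, HLA-C, B2M, NLRC5 and TAP2 were lower in siZCC, and none of the 9 was higher (edgeR's quasi-likelihood test, Benjamini-Hochberg adjusted over all genes, adjusted p under 0.05). Over the whole table, 10.8% of genes passed in the lower direction and 11.4% in the higher, 22.2% in all. The median log2 fold change of the 9 was -0.34, and of all genes tested -0.0016. In 3 of the 9 (HLA-B, HLA-C and NLRC5) every siZCC library lay below every siNC library, against 4.5% of all genes tested that were separated in that direction. In none of the 9 did every siZCC library lie above, against 5.25% of all genes. The members were chosen with earlier results of these data known, so these shares do not test them as a set. In bulk RNA, fewer cells of a type and less RNA per cell cannot be told apart.

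**Figure D1:**
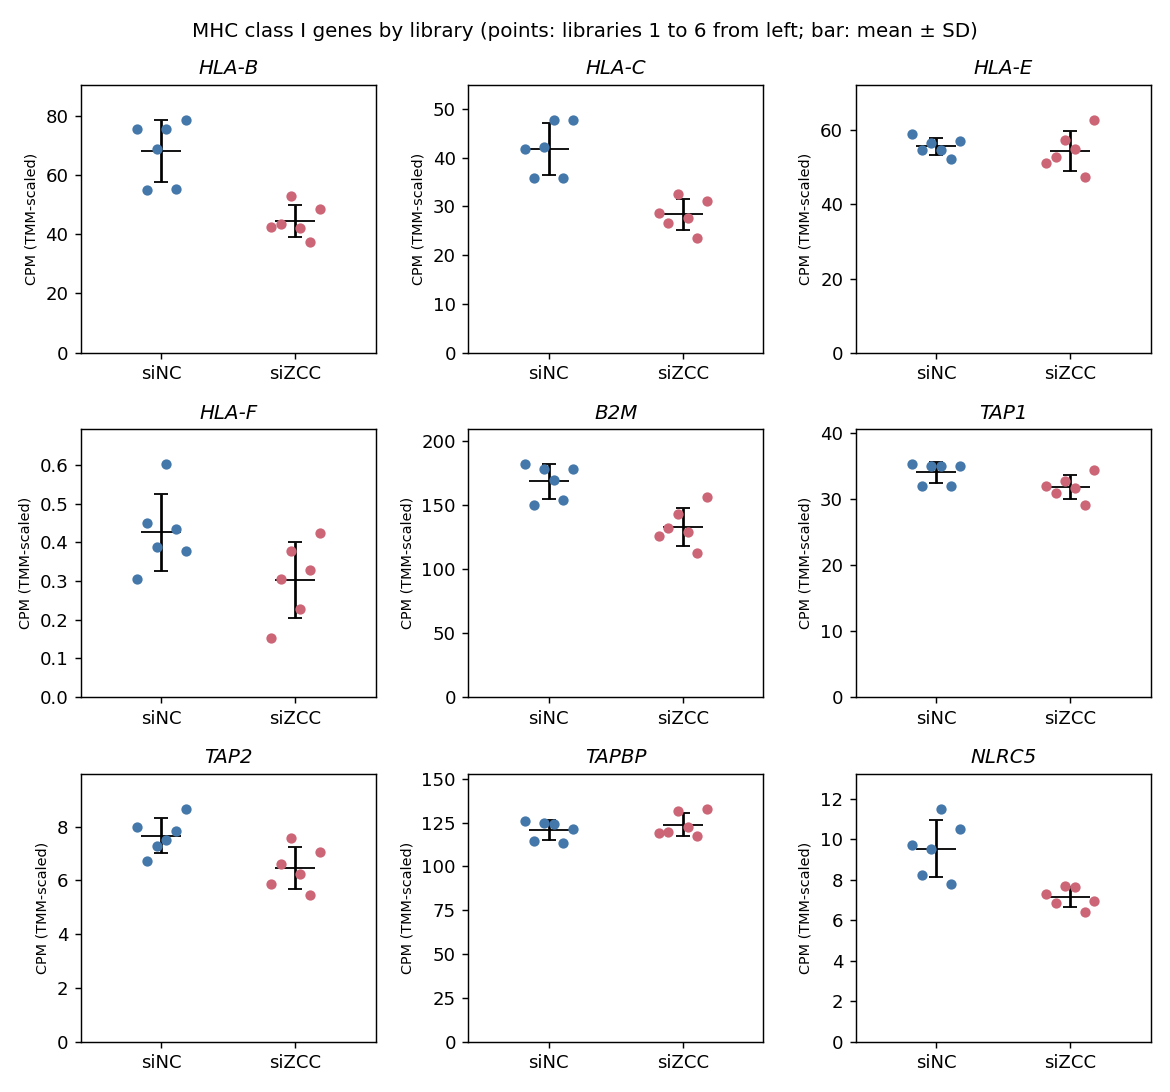
TMM-scaled CPM of the 9 class I genes in each library (points, replicates 1 to 6 from left to right within a group) with the mean and SD of each group (n = 6); axes are linear and start at 0. The groups are separate for HLA-B, HLA-C and NLRC5, overlap in part for B2M and TAP2, and overlap widely for HLA-E and TAPBP.

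Of the members, 7 lie in the major histocompatibility complex on chromosome 6 (GRCh38, GENCODE v29): HLA-F at 29722775 to 29738528, HLA-E at 30489467 to 30494205, HLA-C at 31268749 to 31272130, HLA-B at 31269491 to 31357188, TAP2 at 32821833 to 32838780, TAP1 at 32845209 to 32853978 and TAPBP at 33299694 to 33314387. B2M lies on chromosome 15 at 44711487 to 44718877 and NLRC5 on chromosome 16 at 56989485 to 57083531.

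The heavy chains gave different values. HLA-B, a classical heavy chain that presents peptides to CD8 T cells, ran from 55.1 to 78.7 CPM in siNC (median 72.2) and from 37.5 to 53.1 CPM in siZCC (median 43.0). Its lowest control libraries, replicates 2 and 5, were still above the highest siZCC library. The log2 fold change was -0.61 (SE 0.0934, adjusted p 2.06e-04), or 1.53 times lower, and it was the single member past 1.5-fold, a size reached by 1.11% of all genes in the lower direction. HLA-C, the other classical heavy chain here and a ligand of natural killer cell receptors, ran from 35.8 to 47.8 CPM in siNC (median 42.0) and from 23.5 to 32.6 CPM in siZCC (median 28.2). Its groups were also separate, with a log2 fold change of -0.56 (SE 0.0816, adjusted p 1.43e-04). Exact permutation of the 12 libraries (two-sided) gave p = 0.00216 for each, the smallest that this design can give.

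HLA-E, a nonclassical heavy chain that mostly presents signal peptides of other class I chains to NKG2A receptors, showed no such difference. It ran from 52.3 to 58.9 CPM in siNC (median 55.7) and from 47.4 to 62.8 CPM in siZCC (median 53.9), with siZCC replicate 5 lowest and replicate 6 highest of all 12. The log2 fold change was -0.03 (95% interval -0.14 to 0.08, adjusted p 0.709), and its sign turned to 0.004 without siZCC replicate 5. Within each library, the ratio of HLA-B to HLA-E counts was 1.008 to 1.384 in siNC and 0.766 to 0.924 in siZCC, and that of HLA-C to HLA-E was 0.656 to 0.873 and 0.495 to 0.567. Neither ratio overlapped between the groups. The ratio of HLA-B to HLA-C did, at 1.54 to 1.80 and 1.49 to 1.63. These pairs were chosen after their values were seen and are given without a test.

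HLA-F, a nonclassical heavy chain found mostly inside the cell, was close to the limit of the data, with 34 to 55 counts per siNC library and 13 to 40 per siZCC library. Its log2 fold change of -0.47 had a 95% interval of -0.92 to -0.02 and did not pass (adjusted p 0.124; exact permutation p = 0.0563, two-sided). HLA-G, the heavy chain of the placenta, held 0 to 6 counts per library and was not tested. The class I pseudogene HLA-H was lower in siZCC, from 3.84 ± 0.372 to 3.15 ± 0.189 CPM (SD, n = 6 each; log2 fold change -0.29, adjusted p 0.00899), while HLA-L was at 3.67 and 3.70 CPM (log2 fold change 0.01, adjusted p 0.940). They were the 2 of 12 listed pseudogenes in the table with enough counts to test.

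Class I transcripts resemble each other, which bears on how reads were assigned. Of all 50-base words in the longest GENCODE v29 transcript, 2.54% for HLA-B, 6.39% for HLA-C and 5.13% for HLA-E also occur in a transcript of another gene; for B2M and NLRC5 there was none. TAP2 shares 35.8% with AL669918.1, an overlapping gene model on the same strand that held 0 to 2 counts per library. In GENCODE v29 the span of HLA-B on chromosome 6 (31269491 to 31357188) runs across HLA-C (31268749 to 31272130). The counting of shared or overlapping reads is not given in the sources used here, nor how well the alleles of this line match the reference, and their part in the heavy chain values was not tested.

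B2M, the light chain that every class I heavy chain needs, was lower as well. It ran from 150.2 to 182 CPM in siNC (median 173.9) and from 113 to 156.3 CPM in siZCC (median 130.7), and 5 of the 6 siZCC libraries lay below all controls, siZCC replicate 6 being the exception. The log2 fold change was -0.34 (SE 0.0658, adjusted p 0.00147; exact permutation p = 0.00649, two-sided). Relative to B2M within a library, HLA-C was lower in every siZCC library, with log2 ratios of -2.33 to -2.14 against -2.12 to -1.83. HLA-B was at -1.69 to -1.43 against -1.47 to -1.17, which overlap. HLA-E, TAP1 and TAPBP were higher relative to B2M in every siZCC library; for HLA-E the log2 ratio was -1.32 to -1.24 against -1.66 to -1.46 in siNC. Such ratios do not depend on how libraries are scaled, and they show unequal change of the genes in them.

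**Figure D2:**
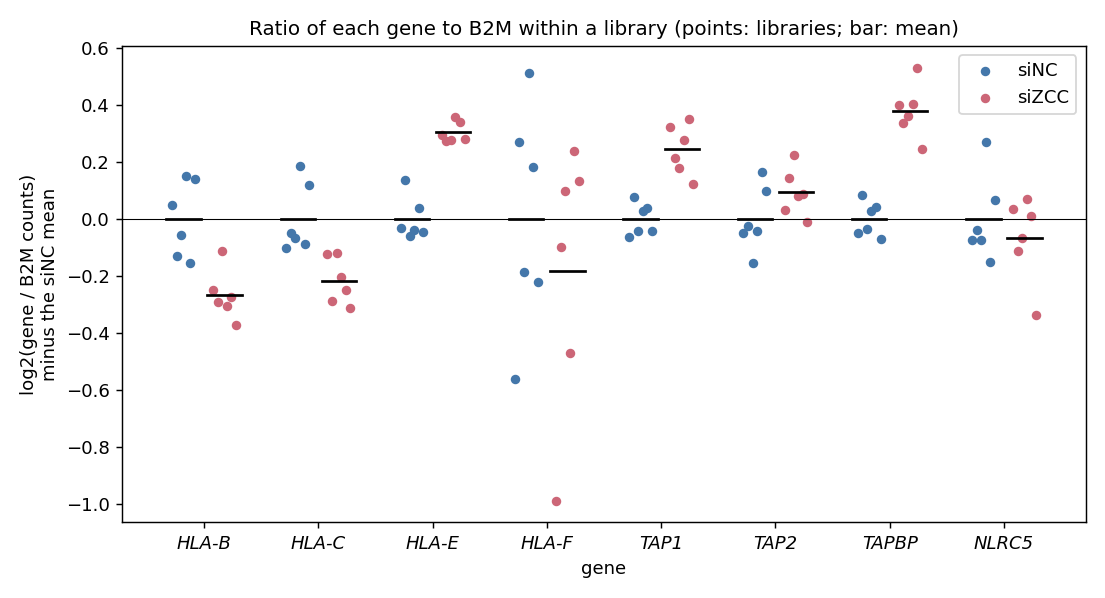
log2 ratio of counts of each gene to B2M within a library, minus the siNC mean of that gene (points, libraries; bars, group means). HLA-E, TAP1 and TAPBP lie above the siNC points in all 6 siZCC libraries, HLA-C lies below them, and HLA-B, HLA-F, TAP2 and NLRC5 overlap.

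Of the transporter subunits and the loading factor, TAP2 was lower, and TAP1 and TAPBP did not pass the test. TAP2 ran from 6.72 to 8.66 CPM in siNC (median 7.67) and from 5.45 to 7.60 CPM in siZCC (median 6.43), with 4 siZCC libraries below all controls. Its log2 fold change was -0.24 (SE 0.0780, adjusted p 0.0327; exact permutation p = 0.0216, two-sided). Leaving out any 1 of siNC replicates 1, 5 and 6 and siZCC replicates 1, 4 and 5 ended this call of TAP2 (adjusted p 0.0518 to 0.0805). These siZCC replicates are the ones with high IL1B. TAP1, its partner in the transporter, ran from 31.95 to 35.2 CPM (median 34.9) and from 29.1 to 34.4 CPM (median 31.8). The log2 fold change of TAP1 was -0.10 (95% interval -0.18 to -0.01) and did not pass over all genes (adjusted p 0.0987; exact permutation p = 0.0433, two-sided), but did so without siZCC replicate 6 (adjusted p 0.0437). Within a library, the ratio of TAP2 to TAP1 counts was 0.208 to 0.248 in siNC and 0.184 to 0.232 in siZCC, which overlap. Whether these subunits changed by unlike amounts was not tested. TAPBP ran from 113.6 to 126.2 CPM (median 122.8) and from 117.2 to 132.9 CPM (median 121.2). Its groups overlapped, and the log2 fold change was 0.04 (95% interval -0.04 to 0.12, adjusted p 0.538).

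NLRC5, the NOD-like receptor protein that acts as the transactivator of class I genes, was among the least abundant members. It ran from 7.79 to 11.5 CPM in siNC (median 9.63) and from 6.40 to 7.69 CPM in siZCC (median 7.12), on 935 to 1222 and 527 to 722 counts. The groups were separate, though siNC replicate 5 lay only just above the highest siZCC library. The log2 fold change was -0.42 (SE 0.0829, adjusted p 0.00174; exact permutation p = 0.00216, two-sided).

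Per kilobase of merged GENCODE v29 exons, the order of levels in siNC was B2M (27.7 ± 2.24 CPM per kilobase), TAPBP (23.9 ± 1.09), HLA-B (22.4 ± 3.45), HLA-E (18.7 ± 0.786), HLA-C (16.7 ± 2.13), TAP1 (7.08 ± 0.330), TAP2 (1.2 ± 0.104), NLRC5 (0.771 ± 0.112) and HLA-F (0.0981 ± 0.0230; SD, n = 6 each). Each neighbouring pair from B2M down to HLA-C overlapped in the range over libraries, and no later pair did. In siZCC the means of HLA-E (18.3 ± 1.80) and TAPBP (24.5 ± 1.34) came above those of HLA-B (14.6 ± 1.79) and B2M (21.9 ± 2.45), again with overlapping ranges. With the length of the longest transcript instead, HLA-B was at 44.1 ± 6.80 CPM per kilobase in siNC and 28.8 ± 3.53 in siZCC, above HLA-E (21.4 ± 0.899 and 20.9 ± 2.05), and B2M in siZCC (55.5 ± 6.19) lay above TAPBP (33.0 ± 1.80) without overlap. Both orders in siZCC therefore depend on the length used.

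Within a group, most members were high or low in the same libraries. Over the 12 libraries, with group means taken out, Pearson's r was 0.365 to 0.952 for the 28 pairs without HLA-F, lowest for HLA-E with NLRC5 and highest for B2M with TAP1, and 0.00304 to 0.301 for HLA-F with the others. The points of each pair share their library, depth and scaling. The library siZCC replicate 5 was the lowest of its group in 8 of the 9 members, all but HLA-F, and siNC replicate 5 in 5 and siNC replicate 2 in 3 of the 9. No library was highest so often. The siZCC replicate 6 was highest in 5 and replicate 3 in 4. Of these siZCC libraries, replicate 5 had high IL1B and replicates 3 and 6 had low IL1B. Within siZCC, the IL1B sets did not overlap for HLA-B (37.5 to 42.6 CPM with high IL1B, 43.3 to 53.1 with low), B2M and TAP2. They overlapped for the other members, and in siNC for all members. This was seen after the fact and was not tested. By Pearson's r over the 12 libraries, after the group means were taken out, the genes most like the mean of the 9 members were EVA1C (0.939), SPARC (0.939), MLEC (0.938), HSPA5 (0.932) and ANXA1 (0.923), out of 12617 others with a mean of at least 5 CPM. That mean gives HLA-F, with its few counts, the same weight as the others, and the ranking changed when HLA-F was left out, an alternative chosen after the data were seen. PAM (0.979), SPARC (0.973), PDIA4 (0.968) and ANXA1 (0.967) were then among those most like it, while EVA1C, MLEC and HSPA5 fell to ranks 38, 136 and 85. These are rankings and not tests. The spread within a group was widest for HLA-B, with a coefficient of variation of 15.4% in siNC and 12.3% in siZCC among members above 1 CPM, and narrow for TAPBP, at 4.54% and 5.47%.

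**Figure D3:**
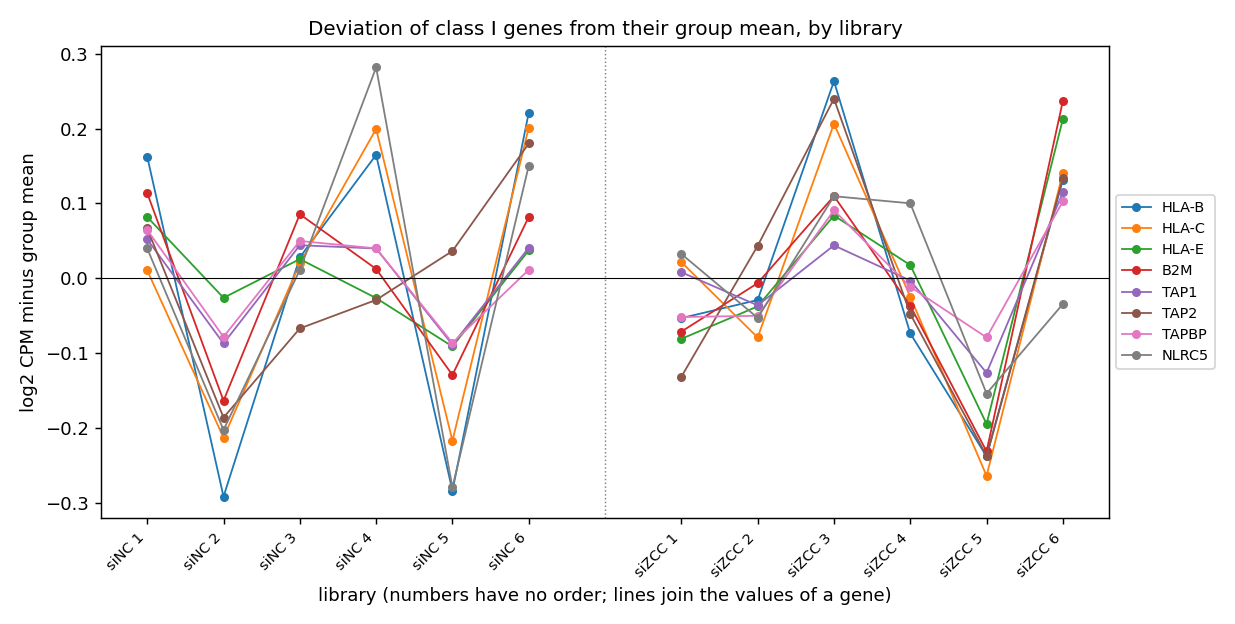
log2 CPM of 8 members minus their group mean in each library (HLA-F left out for its low counts); lines join the values of a gene and the order of replicates has no meaning. In siNC most genes are low in replicates 2 and 5, and in siZCC all 8 are low in replicate 5.

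Genes that supply and load peptides were lower in part. Of 18 listed and tested, 5 were lower and 0 higher, with a median log2 fold change of -0.06. Of all genes tested, 10.8% passed lower and 11.4% higher, against which this count and those of the lists below can be read. The immunoproteasome subunits PSMB8 (9.38 ± 0.823 to 7.13 ± 0.848 CPM; SD, n = 6 each) and PSMB9 (3.89 ± 0.531 to 2.83 ± 0.358 CPM) fell by 0.40 and 0.46 on the log2 scale (adjusted p 0.00147 and 0.00347). PSMB10, the remaining interferon-induced catalytic subunit, was at 1.34 ± 0.236 and 1.22 ± 0.171 CPM and did not pass (-0.14, adjusted p 0.484). ERAP2, which trims peptides in the endoplasmic reticulum, fell from 16.5 ± 1.74 to 12.8 ± 1.05 CPM (-0.37, adjusted p 0.00104), while ERAP1 did not pass (-0.06, adjusted p 0.377). PSME3 and PDIA3 were the others called, at -0.10 and -0.12, and the chaperones CALR and CANX were at -0.02 and -0.01 (adjusted p 0.689 and 0.847). None of the constitutive catalytic subunits PSMB5, PSMB6 and PSMB7 passed. PSMB9 starts next to TAP1 and is read in the other direction; the ratio of PSMB9 to TAP1 counts was 0.0976 to 0.124 in siNC and 0.0826 to 0.0997 in siZCC, which overlap.

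**Figure D4:**
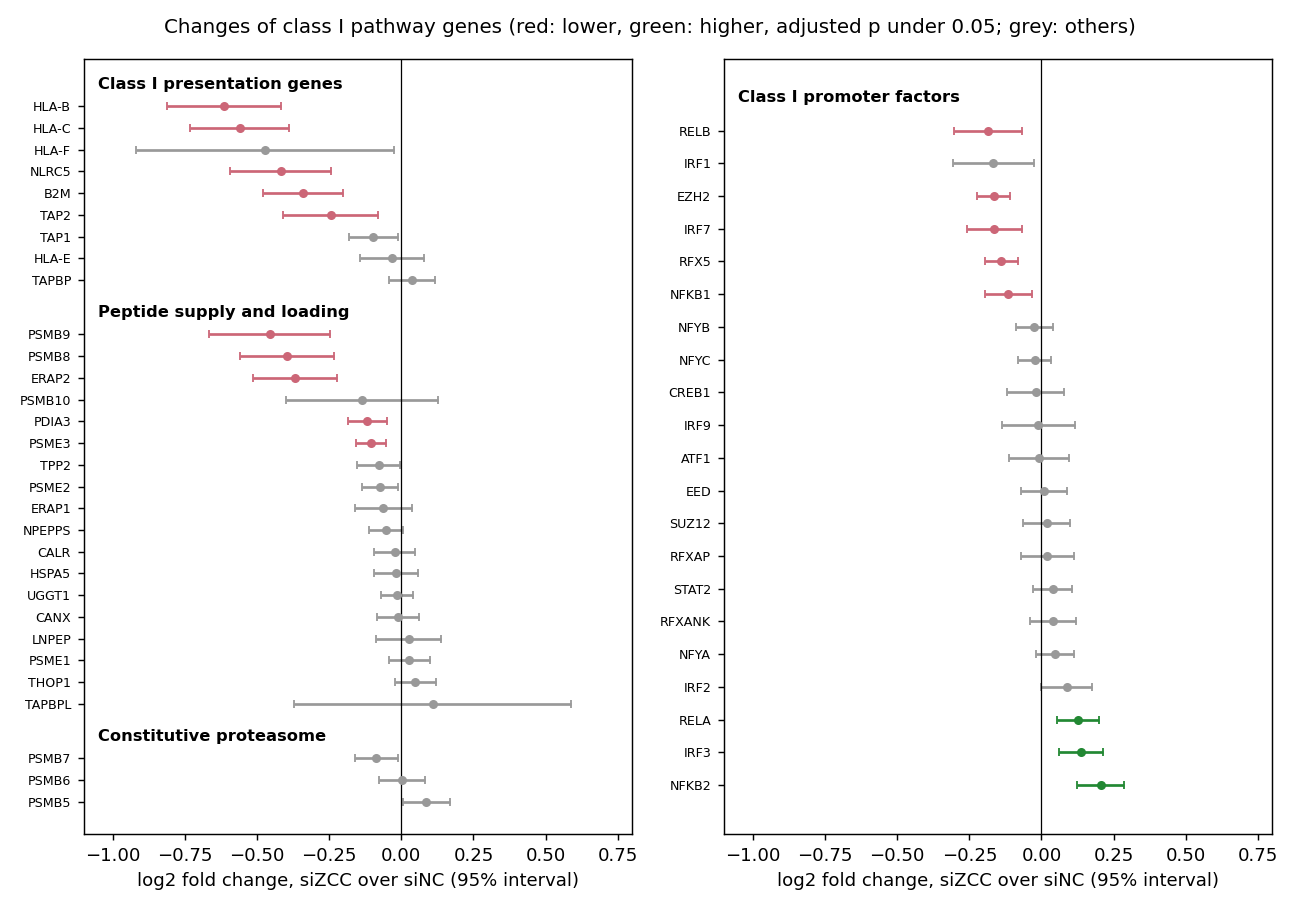
log2 fold change (siZCC over siNC) with its 95% interval for the members, the peptide supply and loading genes, the constitutive proteasome subunits and the class I promoter factors that were tested. Red points are lower and green points higher at an adjusted p under 0.05. HLA-B, HLA-C, PSMB9 and NLRC5 are the called genes farthest to the left, and no promoter factor lies beyond -0.19 or 0.21.

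Factors that act on class I promoters differed by small amounts. Of 21 tested, 3 were higher and 5 lower, with a median log2 fold change of -0.0084. RFX5, which binds the X box beside NLRC5, fell from 69.5 ± 2.28 to 63.1 ± 1.11 CPM (SD, n = 6 each; -0.14, adjusted p 0.00176), and its partners RFXAP and RFXANK were at 0.02 and 0.04 (adjusted p 0.790 and 0.496). EZH2, a histone methyltransferase that can silence class I genes, fell by 0.17 (adjusted p 2.95e-04). NFKB2 (0.21, adjusted p 0.00106) and IRF3 (0.14, adjusted p 0.0121) were higher. Of the remaining called factors, RELA was higher, and NFKB1, RELB and IRF7 were lower, so genes of the NF-kB and IRF families went both ways. The calls of NFKB1 and RELB were lost when some single libraries were left out, among them siNC replicate 3 and siZCC replicate 4. IRF1, an interferon-induced activator, did not pass (-0.17, adjusted p 0.0818), although it did so once siNC replicate 2, siNC replicate 5 or siZCC replicate 3 was left out (adjusted p 0.0333 to 0.0457).

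Interferon genes themselves were near absent. IFNA1, IFNA2, IFNL1 and IFNK held 0 counts in all 12 libraries, and IFNB1 and IFNG held at most 1 and 2 counts in a library. Of 11 ligand, receptor and signalling genes tested, 3 were lower and 0 higher: SOCS3 (57.03 ± 7.003 to 40.0 ± 6.32 CPM; SD, n = 6 each; -0.51, adjusted p 8.25e-04), an inhibitor of cytokine signals, the interferon gamma receptor chain IFNGR2 (-0.12, adjusted p 0.0208), and SOCS1 (-0.43, adjusted p 0.0263), another such inhibitor, which was no longer called in the fit blocked on replicate number or when any 1 of siNC replicates 3, 4 and 6 and siZCC replicates 4 and 6 was left out. Both IFNL2 and IFNL3, chosen after their values were seen, were called lower when no filter on low counts was used, on 2 to 9 and 5 to 15 counts per siNC library and 0 to 2 and 0 to 7 per siZCC library.

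Among class I-like molecules and ligands of natural killer cells, 1 was higher and 2 lower of 10 tested, with a median of -0.11. FCGRT, the neonatal Fc receptor chain that pairs with B2M, rose from 39.6 ± 2.12 to 46.1 ± 2.80 CPM (0.22, adjusted p 0.00164), and HFE, an iron regulator that also pairs with B2M, fell from 0.848 ± 0.115 to 0.580 ± 0.102 CPM (-0.54, adjusted p 0.00641; SD, n = 6 each). MICA, a stress-induced ligand of NKG2D, fell by 0.29 on the log2 scale (adjusted p 0.0240), which no longer passed when any 1 of siNC replicates 3, 4 and 6 and siZCC replicates 4 and 5 was left out (adjusted p 0.0502 to 0.0585 for MICA). None of the 5 class I receptor genes tested passed. The antisense RNA PSMB8-AS1 (-0.56, adjusted p 0.0178) and the noncoding RNA HCP5 (-0.69, adjusted p 0.0270) were both lower at under 1 CPM, HCP5 not without siNC replicate 4, siZCC replicate 2 or siZCC replicate 3 (adjusted p 0.0554 to 0.0619); the strand setting of the counting is not given in the sources used here, so reads of PSMB8-AS1 and its partner may not be separate.

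Markers of other cells were read beside these values. Microglia and blood cell markers summed to 3.69 to 5.51 CPM in siNC and 3.60 to 5.62 CPM in siZCC. Of these, 5 of 12 were abundant enough to test and 0 passed. CD14 and CSF1R were the highest, at 1.66 to 3.22 and 0.720 to 1.51 CPM over both groups. CD3E, C1QA and P2RY12 were each below 0.05 CPM on average. Endothelial markers summed to 11.6 to 16.8 CPM in siNC and 7.71 to 9.99 CPM in siZCC, most of it from TEK and CLDN5. TEK and CLDN5 were lower (2 of 4 tested), and the other 2 tested had positive log2 fold changes that did not pass. The defining genes CDH5 and ERG were at 0.0612 and 0.0151 CPM in siNC. Fibroblast and mural cell markers summed to 364.1 to 644.5 CPM in siNC and 289.5 to 459.9 CPM in siZCC. Of 10 tested, 5 were lower, ACTA2 among them, and 1 higher, PDGFRB. COL1A1, a variable part of these sums, ran from 69.8 to 295.9 CPM in siNC and from 29.8 to 142.5 CPM in siZCC. COL1A2, PDGFRA and TWIST1 were at most at 1.09 CPM in any library. Neuron markers had 3 lower and 1 higher of 10 and astrocyte markers 1 lower and 2 higher of 7. Neural progenitor markers had 3 higher of 7. Beside these counts, 10.8% of all genes tested passed lower and 11.4% higher. The part of the endothelial and mural sets, of cell make-up or of depth in the class I values was not tested.

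Within the libraries with high IL1B (3 per group), the log2 fold changes were -0.73 for HLA-B, -0.66 for HLA-C, -0.46 for B2M and -0.41 for NLRC5, all with an adjusted p under 0.05, and -0.37 for TAP2 (adjusted p 0.0505). Within those with low IL1B they were -0.51 and -0.47 for HLA-B and HLA-C, which passed, and -0.23, -0.43 and -0.13 for B2M, NLRC5 and TAP2, which did not (adjusted p 0.0806, 0.0613 and 0.322). Whether the response differed between these sets was not tested. All 5 called members remained called in a fit over all 12 libraries with the IL1B set as a block.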

How the data were processed

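Members and gene lists were chosen with earlier results of these data known. The authors deposited whole-number read counts per gene symbol, 1 column per library, in 12 columns. Per the submitters' processing notes, STAR 2.7.6a, featureCounts 2.0.1, bcl2fastq 2.17 and GRCh38 were used, with no parameters given. Qiazol lysates and a directional library kit were used, per the labels' protocols. Groups and replicate numbers come from the sample titles.

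Counts were analysed in R 4.3.3 with edgeR 4.0.16 (filterByExpr, TMM, glmQLFit and glmQLFTest over all genes kept, no covariate, Benjamini-Hochberg threshold 0.05). The standard error is the log2 fold change divided by the square root of F. log2 CPM used a prior count of 2. Exact two-sided permutation tests of single genes covered all assignments of the 12 libraries. Ratios to B2M added 0.5 to each count. Genes were named by rule: all members, the 2 smallest p-values per direction in each list, fixed immunoproteasome and promoter factors, and the 5 genes most like the members; other genes were chosen after their values were seen. Positions, lengths, GC content and transcripts were from GENCODE v29 (94.9% of genes kept were found) and promoters from RefSeq. The method was tested on simulated data. Alternatives used DESeq2 1.42.0, limma 3.58.1 voom and mgcv 1.9.3. No library was a copy of another: the chi-square statistic of pairs within a group, divided by its degrees of freedom, was 5.00 to 25.7. The common biological coefficient of variation was 6.55%; genes with few counts, such as HLA-F, carry more counting error than that. Reads, splicing, alleles and protein were not analysed here, and 1 gene of the naming rule is not reported.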

Additional observations from a re-analysis of the deposited data

Results flagged for a closer look

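The members, the library totals and the other genes named by rule except EVA1C, SPARC, MLEC and ANXA1 were searched for libraries that stood apart. The highest and lowest library of each group of 6 were compared with the rest, 62 groups in all. In 2 of them the gap between an extreme library and the next, as a share of the range, passed Dixon's 95% critical value, where about 3.1 are due by chance. IRF1 was highest in siZCC replicate 3, at 2.74 in log2 CPM against 2.51 to 2.59 in the other 5 libraries. For siNC replicate 4 the library total was 90755953 counts, below the remaining siNC totals of 109973707 to 120023356. No library stood apart in this way for any of the 9 members.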

How the results depend on the processing

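Of the 24 alternatives, HLA-B and HLA-C were called lower in all 24 (adjusted p at most 0.0221), B2M and NLRC5 in 22 each and TAP2 in 15. No pairing by the replicate numbers of the titles was seen (same-numbered deviations correlated between -0.077 and 0.0179 over all genes tested). Differently numbered libraries were not compared, so these values do not settle whether the libraries were paired. Blocking on replicate number called 4902 genes, 5 members, 7 promoter factors and 2 interferon genes. Apart from SOCS1 and NFKB1, no call of a member or of a gene named by rule from the lists changed with the block. EVA1C, SPARC, MLEC, ANXA1 and IL1B were not checked there. Removing a trend in GC content and length left the same 5 members called, HLA-B at -0.64. Against a minimum change of 1.2-fold, 349 genes passed (181 higher, 168 lower), 2 members (HLA-B and HLA-C) and 0 genes of the peptide supply, promoter factor, interferon, class I-like, pseudogene and antisense lists, by construction of a stricter test. With 3 libraries per group, the high-IL1B set gave 2043 genes (1051 higher, 992 lower), with 2 promoter factors, 1 interferon gene and 0 in the pseudogene and antisense lists; TAPBP was at -0.0088 there. The low-IL1B set gave 1602 genes (870 higher, 732 lower), 2 members, 1 promoter factor, 1 class I-like gene and 0 peptide supply, interferon, pseudogene and antisense genes; HLA-E was at 0.0617 and PSMB10 at 0.0464. The lower counts come with fewer samples. A mean count of at least 50 left 0 antisense genes, no filter gave 5 interferon genes (IFNL2 and IFNL3 added), and the GC and length correction called 2 constitutive proteasome subunits (PSMB5 and PSMB7); the cause was not tested. Leaving HLA-F out of the mean of the members moved 3 of the 5 most similar genes out of the first 5. Upper quartile scaling lowered the median of all genes only to -0.01. Leaving out each library gave 4484 to 5626 genes in all, 2304 to 2898 higher and 2121 to 2728 lower, 4 to 6 members called lower, 1 to 2 antisense genes (1 without siNC replicate 4 or siZCC replicate 2 or 3) and 0 to 1 constitutive subunits (1 without siZCC replicate 2). HLA-B stayed between -0.68 and -0.57, and HLA-E between -0.0826 and 0.00397, its sign turning without siZCC replicate 5. HLA-F and HCP5 held few counts, 13 to 55 and 12 to 46 per library. The call of HCP5 was lost without siNC replicate 4, where it was highest, or siZCC replicate 2 or 3. The cause of that loss was not tested.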
